A study of Homo sapiens with 6 samples.

Results

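RNA-seq libraries of TOV21G cells that received an siRNA against GYS1 were compared gene by gene with libraries of the same line that received an siRNA against p53. The contrast uses 4 of the 6 libraries of the series, 2 labelled siGYS1 and 2 labelled sip53, chosen by their titles. Every gene of the deposited table was a candidate, and 13235 of 16910 passed the filter on low counts and were tested. TOV21G is an established human cell line from an ovarian clear cell carcinoma. The genotype labels read GYS1 knock down for siGYS1, p53 knock down for sip53 and WT for the remaining group, NC, which is read here as a control siRNA. All 3 groups have 2 libraries and share the line. The sources used here do not give siRNA sequences, time after transfection or whether libraries of a group were separate cultures. The p-values therefore measure only the spread between these libraries, which may be technical. The series asks what GYS1 and p53 do in this line, and the direct contrast shows where the RNA of both knockdowns differed without taking NC as the reference.

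GYS1 encodes the glycogen synthase of muscle and most other tissues, which lengthens glucose chains that start on the protein glycogenin. p53 is a transcription factor that, when stabilised, raises genes of cell cycle arrest, DNA repair and cell death. Through the arrest protein p21 and the repressor complex DREAM it is also known to lower genes of DNA replication and mitosis. Clear cell carcinomas of the ovary are known for glycogen-rich cytoplasm.

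GYS1, the target of siGYS1, was low in the libraries of that siRNA and in no others. Its level was 1.69 and 1.67 FPKM (fragments per kilobase, scaled to sequencing depth, for replicates 1 and 2) with siGYS1, 30.4 and 31.4 with sip53, and 28.6 and 27.3 with NC. The siGYS1 libraries lay below both other groups, and sip53 was above NC in both libraries. The log2 fold change of siGYS1 minus sip53 was -4.21 (SE 0.11, edgeR quasi-likelihood test with Benjamini-Hochberg adjusted p = 3.92e-08), 18.5-fold lower with siGYS1. The siGYS1 labels thus match the level of their target.

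Of the 13235 genes tested, 5745 (43.4%) differed between siGYS1 and sip53 at an adjusted p below 0.05, 2979 (22.5%) higher and 2766 (20.9%) lower with siGYS1. A difference of at least 2-fold was found for 692 higher genes (5.23%) and 588 lower genes (4.44%). The median log2 fold change over all tested genes was 0.01. Among called genes the median size was 0.59 on the log2 scale. Both counts were smaller with 1 sip53 library: without sip53 replicate 1 they were 1820 higher and 1596 lower, and without sip53 replicate 2 they were 1822 and 1663. The 95% interval of the difference lay wholly within 1 log2 unit of 0 for 10043 genes (75.9%) and within 0.5 units for 4952 (37.4%), the second count falling to 3175 without sip53 replicate 1 and 3129 without sip53 replicate 2. It lay wholly beyond 1 unit for 606 genes.

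Read counts per library summed to between 17425000 and 18097337, and mitochondrially encoded transcripts took 4.81% to 6.0% of them. The log2 levels of siGYS1 replicate 1 and NC replicate 2 moved with gene length when set against the mean of all 6 libraries (Spearman correlation over genes 0.54 and -0.39), while it was between -0.08 and 0.04 in the other libraries. Across 11187 genes the log2 fold change of siGYS1 minus sip53 had a Spearman correlation of 0.18 with length. These are bulk libraries, in which fewer cells of a kind and less RNA per cell cannot be told apart.

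**Figure D1:**
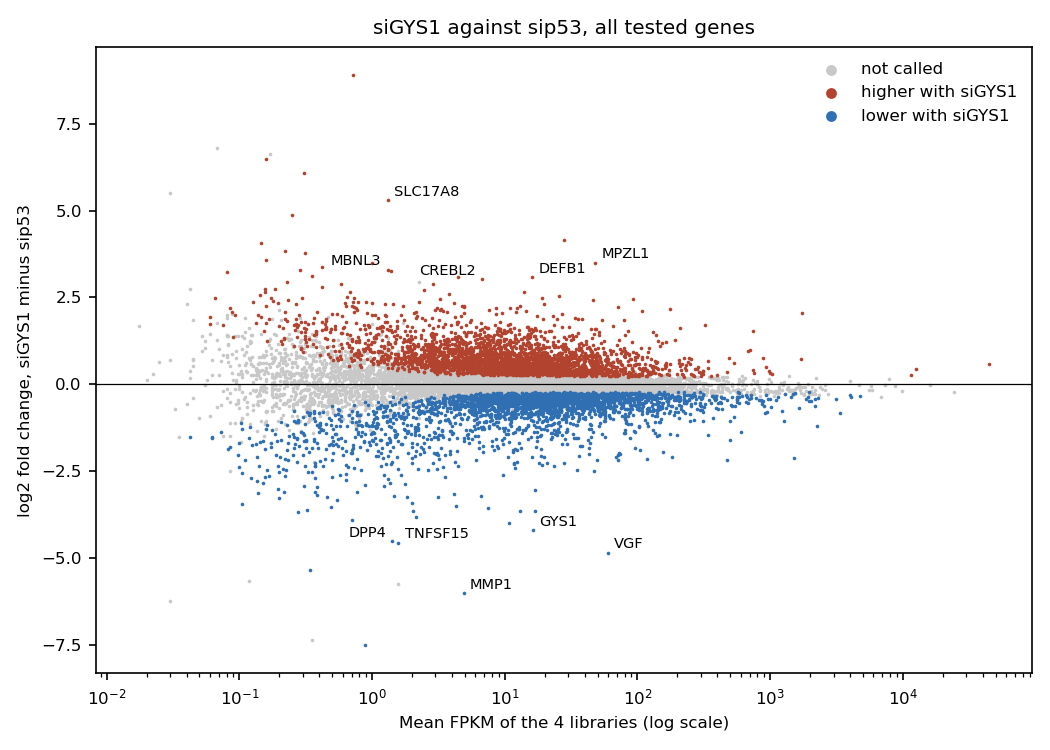
Each point is a tested gene, placed by its mean FPKM over the 4 libraries (x axis, log scale) and its log2 fold change of siGYS1 minus sip53 (y axis). Red points are the 2979 genes higher and blue points the 2766 genes lower with siGYS1 at an adjusted p below 0.05, and MMP1, VGF and GYS1 stand at the lower edge among genes above 1 FPKM.

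Among protein-coding genes with a mean above 1 FPKM, MMP1, VGF, TNFSF15 and DPP4 were, with GYS1, the furthest below sip53 in the siGYS1 libraries. MMP1, the interstitial collagenase, was at 0.17 and 0.13 FPKM with siGYS1, 10.9 and 8.41 with sip53, and 0.10 and 0.07 with NC. The sip53 libraries stood apart from the other 4, and the difference was 64.1-fold (log2 fold change -6.00, SE 0.28, adjusted p = 9.87e-07), resting on 5 and 4 reads with siGYS1 against 328 and 257. VGF, a neuropeptide precursor, stood at 3.94 and 4.27 FPKM with siGYS1, 111.1 and 118.6 with sip53, and 6.38 and 5.65 with NC. That is 28.7-fold lower with siGYS1 than with sip53 (log2 fold change -4.84, SE 0.11, adjusted p = 3.23e-08). TNFSF15, a cytokine of the TNF superfamily, measured 0.16 and 0.10 FPKM with siGYS1, 3.17 and 2.89 with sip53, and 0.14 and 0.11 with NC (log2 fold change -4.56, SE 0.21). DPP4, a surface peptidase that trims chemokines and incretins, gave a log2 fold change of -4.51 (SE 0.28) between 0.09 and 0.16 FPKM with siGYS1 and 2.87 and 2.57 with sip53, with NC at 0.17 and 0.26. In all 4 genes the siGYS1 and NC libraries were near each other and sip53 stood apart.

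CSF2, the growth factor GM-CSF, was at 1.92 and 3.17 FPKM with siGYS1 and 32.3 and 30.7 with sip53, against 0.33 and 0.22 with NC. It was lower with siGYS1 than with sip53 (log2 fold change -3.65, SE 0.20, adjusted p = 2.11e-06), and the siGYS1 libraries lay between NC and sip53. G0S2, an inhibitor of the lipase ATGL, showed the same order with 1.25 and 2.61 FPKM for siGYS1, 24.97 and 23.02 for sip53, and 0.85 in both NC libraries (log2 fold change -3.65, SE 0.24). PDGFB, the B chain of platelet-derived growth factor, was at 1.14 and 0.53 FPKM with siGYS1 and 6.57 and 8.80 with sip53 (log2 fold change -3.50, SE 0.20). The remaining genes of this set were KRTAP2-3 at -4.00, WFDC1 at -3.82 and ACTC1, cardiac actin, at -3.57 on the log2 scale. DCN, the matrix proteoglycan decorin, had a log2 fold change of -3.65 (SE 0.38, adjusted p = 6.04e-05), from 7 and 3 reads with siGYS1 and 70 and 57 with sip53. NC held 3 and 4 reads, although its FPKM is listed at 0.31 and 6.97, so the FPKM of NC replicate 2 rests on 4 reads. With limma on log2(FPKM + 1) the adjusted p of DCN was 0.0573.

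On the other side, SLC17A8, a vesicular glutamate transporter, was at 2.69 and 2.42 FPKM with siGYS1, 0.03 and 0.09 with sip53, and 7.30 and 6.37 with NC. The sip53 libraries held 2 and 6 reads of it, and the difference was 39.5-fold (log2 fold change 5.30, SE 0.29, adjusted p = 1.98e-06). MPZL1, a cell surface protein that binds the phosphatase SHP2, was abundant at 95.2 and 82.8 FPKM with siGYS1 and 96.7 and 85.7 with NC, and was at 7.17 and 6.59 with sip53. The siGYS1 and NC libraries of MPZL1 overlapped, and siGYS1 exceeded sip53 by 11.4-fold (log2 fold change 3.51, SE 0.11, adjusted p = 2.02e-07). DEFB1, an epithelial antimicrobial peptide, measured 24.0 and 33.7 FPKM with siGYS1, 4.62 and 2.11 with sip53, and 63.0 and 87.3 with NC (log2 fold change 3.10, SE 0.40). Here all 3 groups were apart, with siGYS1 in the middle.

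CREBL2, a protein of the CREB family, gave 12.9 and 11.3 FPKM with siGYS1 against 1.51 and 1.38 with sip53 (log2 fold change 3.03, SE 0.13). ARHGAP11A, a GTPase activating protein of dividing cells, stood at 28.4 and 20.3 FPKM against 3.49 and 3.20 (log2 fold change 2.65, SE 0.13). CALCRL, the receptor subunit for adrenomedullin and CGRP, was at 7.10 and 6.05 FPKM against 1.05 and 0.90 (log2 fold change 2.61, SE 0.15). MBNL3, a splicing regulator, at 3.30, MNS1, a protein of ciliary axonemes, at 2.89, and LYNX1, which binds nicotinic receptors, at 2.72 on the log2 scale were also in this set. The rule also took ENSG00000268643 and ENSG00000260537, which carry no symbol in the table and are listed at 0 in sip53 replicate 2. ENSG00000268643 had a log2 fold change of 3.25 (SE 0.72) on at most 16.5 estimated reads a library. ENSG00000260537 had 3.09 (SE 0.59), and its DESeq2 adjusted p was 0.153.

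**Figure D2:**
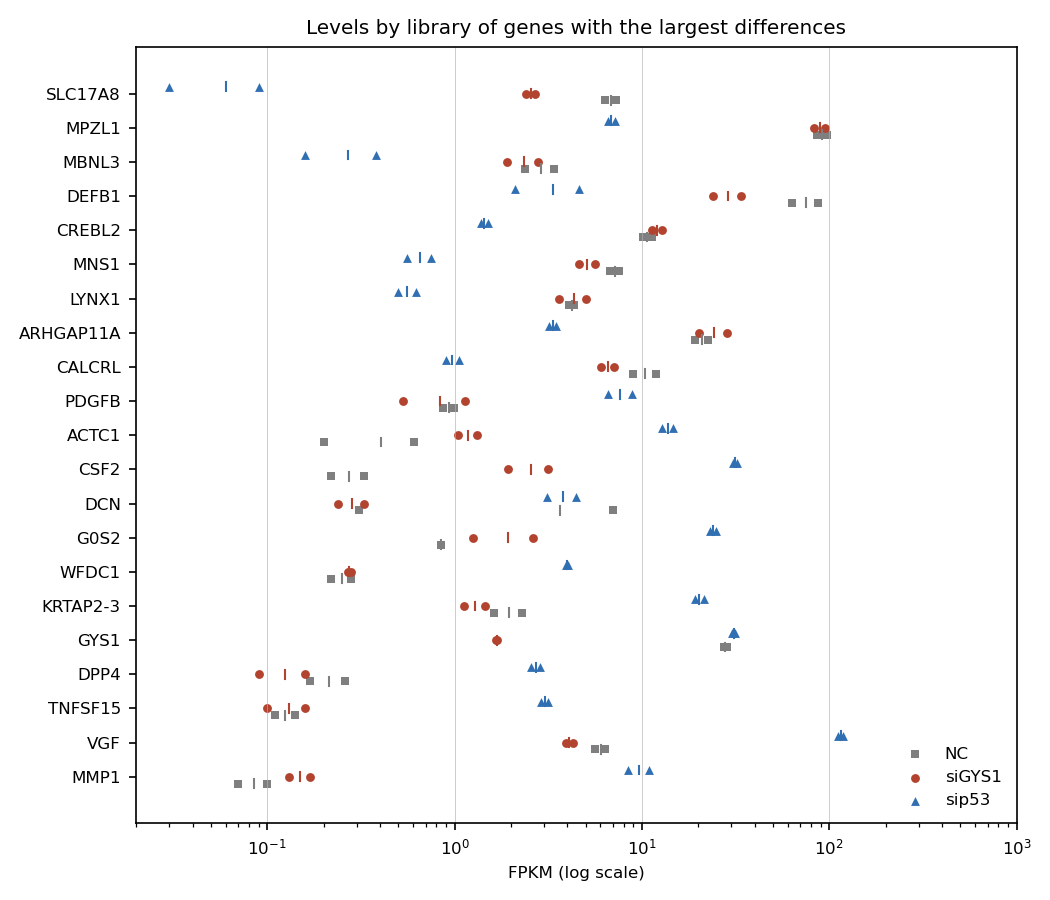
FPKM by library on a log scale for 21 genes with the largest differences between siGYS1 and sip53, ordered by log2 fold change. Red circles are siGYS1, blue triangles sip53 and grey squares NC, each a library, with a short line at the mean. In MMP1, VGF and CSF2 the sip53 libraries are the highest, in SLC17A8, DEFB1 and MPZL1 they are the lowest, and in GYS1 the siGYS1 libraries stand alone.

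Genes were also ranked by their difference in TPM, a level scaled for gene length and sequencing depth, rather than by ratio. The largest differences included a chemokine, an extracellular phosphoprotein and several very abundant short or mitochondrial transcripts. This scale raises short genes relative to their reads. With siGYS1, MT-ATP8 held 4139 and 4314 reads at a mean TPM of 69948. MT-CO1 held 270932 and 300581 reads with siGYS1 at a mean TPM of 16997. CXCL8, the neutrophil attractant interleukin-8, was at 588.6 and 553.8 FPKM with siGYS1, 2532 and 2344 with sip53, and 289.0 and 275.9 with NC. It was 4.40-fold lower with siGYS1 than with sip53 (log2 fold change -2.14, SE 0.08, adjusted p = 5.89e-07), with siGYS1 between NC and sip53. SPP1, osteopontin, was at 2676 and 2938 FPKM with siGYS1, 726.1 and 611.9 with sip53, and 3396 and 3578 with NC, 4.13-fold higher with siGYS1 than with sip53 (log2 fold change 2.04, SE 0.10). CXCL1, another neutrophil attractant, was at 2049 and 2258 FPKM with siGYS1 and 1271 in both sip53 libraries (log2 fold change 0.73, SE 0.08). AKR1B1, the aldose reductase that turns glucose into sorbitol, was lower with siGYS1 at 2124 and 2792 FPKM against 4461 and 4020 (log2 fold change -0.83, SE 0.12).

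Among the ribosomal and mitochondrial transcripts of this set, RPS27 was lower with siGYS1 by a log2 fold change of -1.19 (SE 0.12), with 1249 and 1480 FPKM against 3298 and 2955 with sip53. RPS29 had -0.32 (SE 0.12, adjusted p = 0.0498), and its sign turned to 0.025 when offsets corrected for gene length, with an adjusted p of 0.803. The call of RPS29 was also lost on leaving out either NC library (adjusted p = 0.0616 and 0.0622 for replicates 1 and 2), either sip53 library (0.106 and 0.288) or siGYS1 replicate 1 (0.239). Both are short genes with processed copies in the genome, so that their read counts are uncertain. MT-CO3 and MT-CO1, subunits of cytochrome c oxidase, had 0.44 (SE 0.09) and 0.26 (SE 0.07), MT-ATP8 had 0.57 (SE 0.16) and MT-ND2 of complex I had -0.33 (SE 0.08). MT-ATP8 overlaps MT-ATP6, whose reads cannot be told apart there. None of these 4 mitochondrial genes passed with limma on log2(FPKM + 1), where the adjusted p was 0.179 for MT-CO3, 0.359 for MT-CO1, 0.365 for MT-ATP8 and 0.193 for MT-ND2. By edgeR the call of MT-CO1 was lost without siGYS1 replicate 2 (adjusted p = 0.0853), sip53 replicate 1 (0.109) or sip53 replicate 2 (0.108), that of MT-ATP8 without sip53 replicate 1 (0.154) and that of MT-ND2 without sip53 replicate 2 (0.0947).

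Many direct targets of p53 were higher with siGYS1 than with sip53. Of 41 tested targets (44 listed), 22 were higher, 3 were lower and 16 did not pass. That is 53.7% higher and 7.32% lower, against 22.5% and 20.9% of all tested genes. The median log2 fold change was 0.42. MDM2, the ubiquitin ligase that degrades p53, was at 73.1 and 53.3 FPKM with siGYS1, 14.1 and 12.7 with sip53, and 49.6 and 43.4 with NC. It was 3.68-fold higher with siGYS1 than with sip53 (log2 fold change 1.88, SE 0.10, adjusted p = 1.98e-06), and both siGYS1 libraries exceeded both NC libraries. BBC3, the cell death protein PUMA, stood at 10.6 and 12.3 FPKM with siGYS1, 5.82 and 4.06 with sip53, and 8.69 and 7.76 with NC (log2 fold change 1.23, SE 0.17). CDKN1A, the arrest protein p21, was at 301.0 and 318.4 FPKM with siGYS1, 182.2 and 171.5 with sip53, and 264.0 and 261.5 with NC (log2 fold change 0.77, SE 0.08). For MDM2, BBC3 and CDKN1A the siGYS1 libraries were the highest and the sip53 libraries the lowest, with no overlap. The stress sensor SESN1 (1.20), the damage recognition protein XPC (1.09) and the ribonucleotide reductase subunit RRM2B (1.06) were higher by more than 1 log2 unit.

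The 3 targets that went the other way belong to cell death and stress signalling, as do BBC3, BAX, FAS and SESN1, which were higher. TNFRSF10B, the TRAIL receptor DR5, was at 100.9 and 94.98 FPKM with siGYS1, 261.2 and 243.1 with sip53, and 95.5 and 85.8 with NC, 2.70-fold lower with siGYS1 than with sip53 (log2 fold change -1.43, SE 0.08, adjusted p = 2.15e-06). PMAIP1, the cell death protein NOXA, had a log2 fold change of -0.50 (SE 0.10), with 17.8 and 15.2 FPKM against 23.0 and 22.4. GDF15, a stress hormone of the TGF-beta family, had -0.46 (SE 0.09). TIGAR, which lowers glycolytic flux and links p53 to sugar metabolism, was not called, at 10.2 and 10.3 FPKM with siGYS1 and 11.6 and 10.7 with sip53 (log2 fold change -0.22, 95% interval -0.45 to -0.00).

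**Figure D3:**
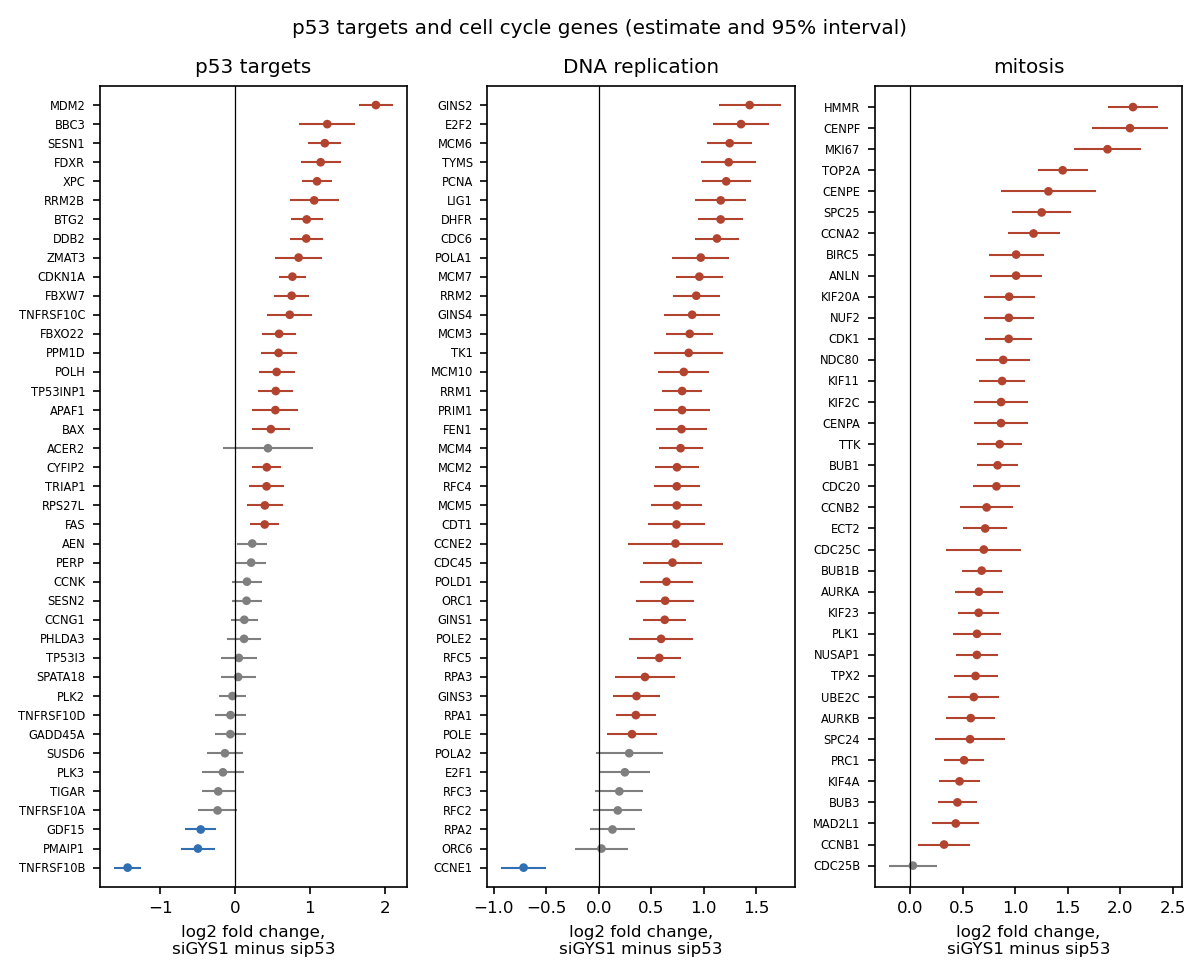
Log2 fold changes of siGYS1 minus sip53 (x axis) with 95% intervals for tested p53 targets, DNA replication genes and mitosis genes, each row a gene. Red marks genes higher with siGYS1 at an adjusted p below 0.05, blue lower and grey not called. HMMR and CENPF are above 2 among mitosis genes, and TNFRSF10B and CCNE1 lie furthest left in their lists.

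Genes of DNA replication and mitosis were higher with siGYS1 than with sip53. In the mitosis list 36 of 37 genes were higher (97.3% against 22.5% of all tested genes) and none lower. The median log2 fold change was 0.82, and CDC25B alone was not called (0.03). HMMR, a spindle protein that also binds hyaluronan, was at 25.5 and 22.3 FPKM with siGYS1, 4.74 and 5.25 with sip53, and 21.6 in both NC libraries. The siGYS1 libraries were 4.36-fold above sip53 (log2 fold change 2.12, SE 0.11, adjusted p = 1.38e-06). CENPF, a kinetochore and nuclear matrix protein, stood at 20.8 and 19.1 FPKM with siGYS1, 4.62 and 4.46 with sip53, and 17.2 and 11.6 with NC (log2 fold change 2.10, SE 0.16). For both genes siGYS1 and NC were on the same side, far from sip53. MKI67, the proliferation antigen Ki-67, was at 43.7 and 34.6 FPKM against 9.42 and 11.6 with sip53 (log2 fold change 1.88, SE 0.14). TOP2A, which untangles chromosomes, was at 74.9 and 63.3 FPKM against 23.4 and 25.7 (log2 fold change 1.45, SE 0.11).

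In the replication list 34 of 41 genes were higher (82.9% against 22.5% of all tested genes), 1 was lower and 6 did not pass. The median was 0.74. GINS2, a subunit of the replicative helicase, was at 11.9 and 13.8 FPKM with siGYS1, 4.43 and 4.76 with sip53, and 11.5 and 13.9 with NC (log2 fold change 1.44, SE 0.13, adjusted p = 3.02e-05). The siGYS1 and NC libraries of GINS2 overlapped, and both groups were above sip53. E2F2, a transcription factor of S-phase entry, had a log2 fold change of 1.36 (SE 0.12), the helicase subunit MCM6 1.25, thymidylate synthase TYMS 1.24 and the sliding clamp PCNA 1.22. CCNE1, cyclin E1, was the gene that was lower, at 17.6 and 19.2 FPKM with siGYS1, 28.5 and 29.2 with sip53, and 18.5 and 17.9 with NC (log2 fold change -0.72, SE 0.10).

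p53 is known to lower cell cycle genes through DREAM, which binds a CHR element, next to CCAAT boxes bound by NF-Y. HMMR, CENPF and GINS2 were lowest with sip53. The part of DREAM in these levels was not tested. Promoter sequences of the leading genes are shown as a description. They are the 250 bases before the RefSeq start (GRCh38.p14), read 5′ to 3′ on the gene's strand, with matches on either strand in capitals: CCAAT (reverse ATTGG) and TTTGAA or TTCGAA for mitosis, and GCGGGAA, an E2F-type motif, for replication. The table held a promoter for 31 of 37 mitosis genes and 34 of 41 replication genes. In HMMR some matches touch or overlap, and its TTTGAA occurs as a direct repeat.
HMMR, chr5:163460382-163460631, plus strand: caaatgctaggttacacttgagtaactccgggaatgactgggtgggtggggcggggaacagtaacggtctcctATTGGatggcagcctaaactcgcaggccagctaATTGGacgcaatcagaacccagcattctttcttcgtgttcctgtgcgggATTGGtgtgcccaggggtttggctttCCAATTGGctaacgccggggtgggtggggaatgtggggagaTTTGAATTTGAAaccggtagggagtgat
CENPF, chr1:214602945-214603194, plus strand: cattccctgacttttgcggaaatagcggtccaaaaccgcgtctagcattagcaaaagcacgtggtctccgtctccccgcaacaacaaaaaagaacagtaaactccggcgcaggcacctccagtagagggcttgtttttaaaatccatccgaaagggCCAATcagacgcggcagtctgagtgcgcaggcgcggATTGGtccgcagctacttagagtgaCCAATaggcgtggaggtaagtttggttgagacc
GINS2, chr16:85688955-85689204, minus strand: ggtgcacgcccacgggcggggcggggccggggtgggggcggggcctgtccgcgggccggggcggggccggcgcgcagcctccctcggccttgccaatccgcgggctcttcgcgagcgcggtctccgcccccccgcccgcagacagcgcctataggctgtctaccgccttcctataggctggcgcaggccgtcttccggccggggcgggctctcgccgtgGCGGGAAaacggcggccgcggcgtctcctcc
In windows that run from 250 bases before to 50 after the start, CCAAT was present in 23 of 31 mitosis promoters (74.2%) against 35.7% of all 27305 promoters of that length. TTTGAA or TTCGAA was in 22 of 31 (71.0%) against 16.6%, and both kinds in 18 (58.1%) against 6.58%. GCGGGAA was in 14 of 34 replication promoters (41.2%) against 6.56%, and E2F2 held none. These shares are traits of the chosen lists and use no value of the contrast. Of 29 called replication genes with a promoter, 12 held GCGGGAA. The matches describe the letters and not factor binding, which was not measured.

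Replication-dependent histones went the opposite way to replication genes. All 7 tested histone genes (16 listed) were lower with siGYS1 than with sip53, against 20.9% of all tested genes. The median log2 fold change was -1.64, and DESeq2 called 4 of them. H2BC4, a histone H2B gene, was at 6.08 and 3.07 FPKM with siGYS1, 22.8 and 17.2 with sip53, and 4.36 and 6.46 with NC (log2 fold change -2.25, SE 0.21, adjusted p = 3.84e-05). H2AC18, a histone H2A gene with a near-identical copy, had -2.27 (SE 0.57, adjusted p = 0.00953) but is listed at 0 in NC replicate 1, and leaving out sip53 replicate 1 or 2 gave adjusted p-values of 0.0651 and 0.052. The summed FPKM of the list was 67.0 and 81.3 with siGYS1, 179.0 and 154.6 with sip53, and 70.1 and 94.5 with NC. Most mRNAs of these genes end without a poly(A) tail, and the labels' protocol describes poly(A) selection in general terms.

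**Figure D4:**
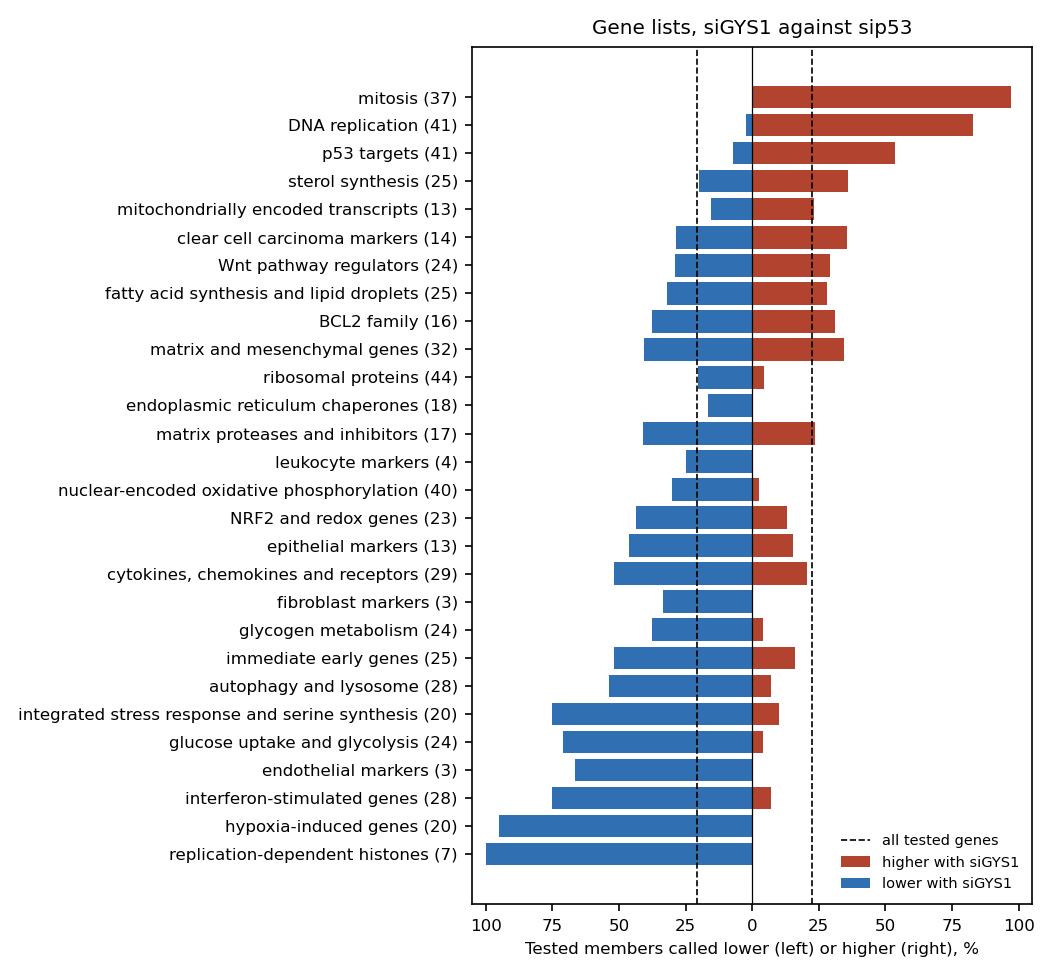
Bars give the percent of tested members of each of 28 gene lists (number tested in parentheses) that were higher (right, red) or lower (left, blue) with siGYS1 at an adjusted p below 0.05. Dashed lines mark 22.5% and 20.9%, the shares over all tested genes. Mitosis and DNA replication reach furthest right, and histones and hypoxia-induced genes reach furthest left.

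Among the other glycogen genes more were lower than higher with siGYS1. Of 24 tested genes (29 listed, GYS1 not among them), 1 was higher, 9 were lower (37.5%, against 20.9% of all tested genes) and 14 did not pass, with a median log2 fold change of -0.16. Partners at the core of the pathway were close: GYG1, the glycogenin of most tissues, had -0.24 (SE 0.09, adjusted p = 0.0438), and GBE1, the branching enzyme, had -0.12 with a 95% interval of -0.35 to 0.11. Of the phosphorylases, which release glucose from glycogen, PYGL had -0.30 (SE 0.09) and PYGB 0.17 (95% interval -0.03 to 0.37, not called). STBD1, which tethers glycogen to membranes, was at 13.7 FPKM in both siGYS1 libraries and 24.0 and 21.7 with sip53 (log2 fold change -0.77, SE 0.10).

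The largest glycogen differences were in genes at very low levels. GYG2, the liver-type glycogenin, was lower with siGYS1 (log2 fold change -3.67, SE 0.65), with 1 read in each siGYS1 library and 15 and 13 with sip53. NC held 4 and 3 reads, so GYG2 passed the filter on low counts only through the sip53 libraries. Its direction was thereby fixed in advance, and it is counted among the 9 lower genes. PPP1R3C, a subunit that brings protein phosphatase to glycogen, was at 0.10 and 0.22 FPKM with siGYS1 and 0.94 and 1.03 with sip53 (log2 fold change -2.62, SE 0.37), and at 0.27 and 0.29 with NC. PHKA2, a regulatory subunit of phosphorylase kinase, was the gene that was higher, at 9.80 and 9.39 FPKM with siGYS1, 6.15 and 7.07 with sip53, and 13.8 and 12.8 with NC (log2 fold change 0.50, SE 0.10), with an adjusted p of 0.0564 without sip53 replicate 1.

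Glucose transporters and glycolytic enzymes were lower with siGYS1 than with sip53. Of 24 genes, 17 were lower (70.8% against 20.9% of all tested genes), 1 was higher and 6 did not pass. The median was -0.60. SLC2A1, the glucose transporter GLUT1, was at 110.7 and 113.8 FPKM with siGYS1, 296.3 and 271.2 with sip53, and 58.6 and 57.2 with NC. It was 2.73-fold lower with siGYS1 than with sip53 (log2 fold change -1.45, SE 0.08, adjusted p = 2.26e-06), with siGYS1 between NC and sip53. ENO2, an enolase, followed the same order at 57.4 and 53.4, 147.0 and 128.6, and 41.7 and 39.1 FPKM (log2 fold change -1.37, SE 0.09). The transporter SLC2A3 (-1.32), hexokinase HK2 (-1.10), phosphoglycerate kinase PGK1 (-0.80) and lactate dehydrogenase LDHA (-0.62) were also lower. PFKFB3, which makes the activator of phosphofructokinase, was at 297.8 and 288.3 FPKM with siGYS1 and 233.2 and 234.1 with sip53 (log2 fold change 0.28, SE 0.08). Its adjusted p was 0.117 without sip53 replicate 1 and 0.107 without sip53 replicate 2.

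Genes induced by hypoxia through the transcription factor HIF were lower with siGYS1 in 19 of 20 cases (95% against 20.9% of all tested genes). The median was -0.65. Without sip53 replicate 1 the count was 12. CA12, a surface carbonic anhydrase, was at 4.05 and 3.66 FPKM with siGYS1, 31.3 and 28.0 with sip53, and 7.97 and 7.98 with NC. The siGYS1 libraries were the lowest of the 3 groups, 8.22-fold below sip53 (log2 fold change -3.04, SE 0.11, adjusted p = 3.4e-07). ANGPTL4, a secreted inhibitor of lipoprotein lipase, was at 39.7 and 49.3 FPKM with siGYS1, 200.2 and 180.0 with sip53, and 28.4 and 30.0 with NC (log2 fold change -2.14, SE 0.12). In contrast to CA12, ANGPTL4 had siGYS1 above NC. NDRG1, a hypoxia and differentiation gene, had -2.05 (SE 0.10), and VEGFA, the vascular growth factor, had -0.36. EGLN3, a prolyl hydroxylase, was not called (-0.60).

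The promoter of ANGPTL4 is shown as that of the leading hypoxia gene with a match to ACGTG, the core that HIF is known to bind, with the match (reverse CACGT) in capitals, in the same window and build as above.
ANGPTL4, chr19:8363905-8364154, plus strand: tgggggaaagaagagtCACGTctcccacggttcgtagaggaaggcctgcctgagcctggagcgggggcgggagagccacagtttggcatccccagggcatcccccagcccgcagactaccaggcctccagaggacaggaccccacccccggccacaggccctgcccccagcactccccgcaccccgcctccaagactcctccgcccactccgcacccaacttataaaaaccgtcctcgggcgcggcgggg
Of the 20 hypoxia genes 17 had a promoter in the table. ACGTG was present on either strand in 9 of them (52.9%), against 21.6% of all promoters, and CA12 held none in this window. This share is likewise a trait of the chosen list and uses no value of the contrast.

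**Figure D5:**
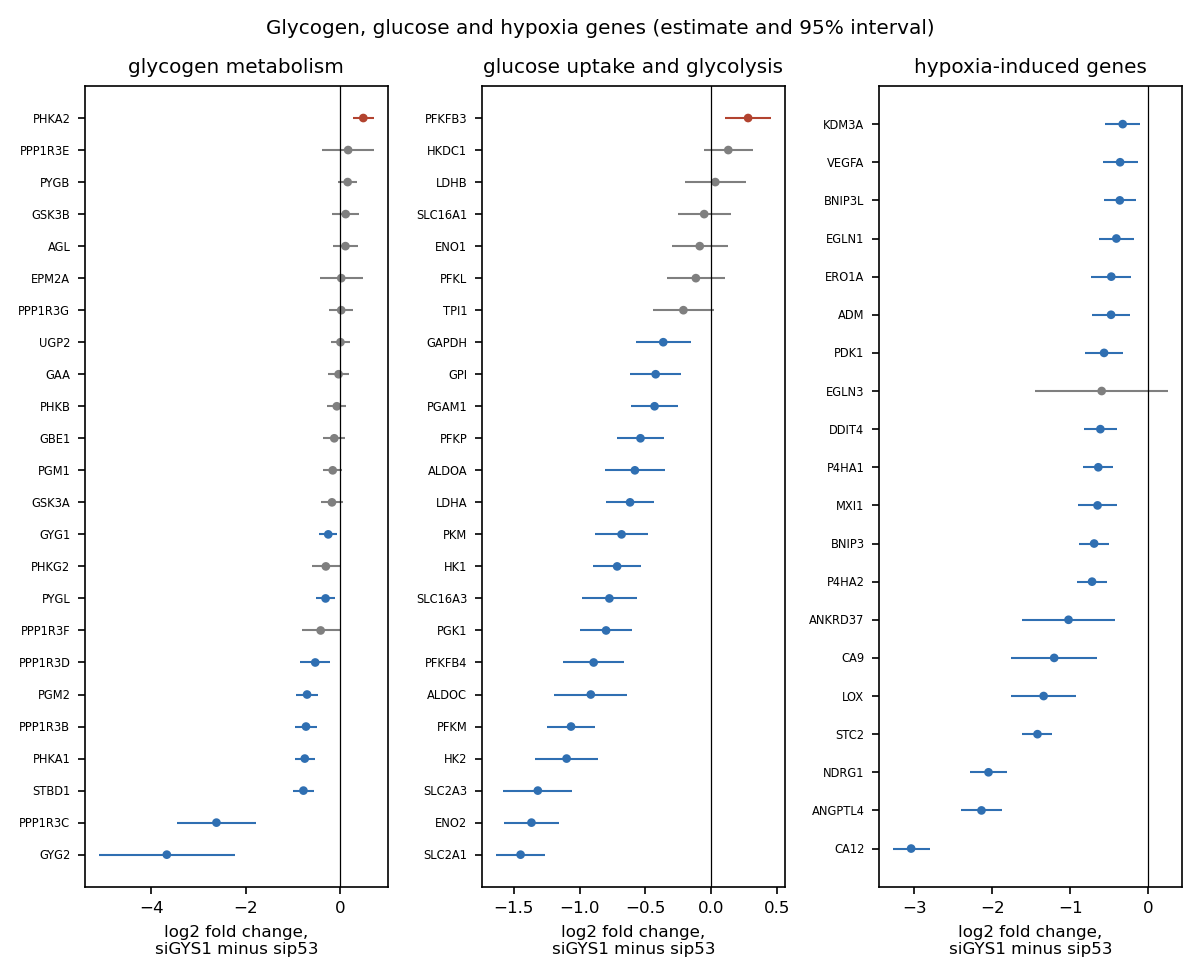
Log2 fold changes of siGYS1 minus sip53 (x axis, scales differ between panels) with 95% intervals for tested genes of glycogen metabolism, glucose uptake and glycolysis, and hypoxia. Blue marks genes lower with siGYS1 at an adjusted p below 0.05, red higher and grey not called. SLC2A1 and CA12 lie furthest left in their panels, and most glycogen genes sit near 0 with GYG2 and PPP1R3C apart.

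Genes of amino acid stress, oxidative stress and lipid storage included several that were far below sip53 in the siGYS1 libraries. In the list of the integrated stress response and serine synthesis, 15 of 20 were lower and 2 higher. That is 75% and 10%, against 20.9% and 22.5% of all tested genes, and the median was -0.70. SLC7A5, the leucine transporter LAT1, was at 14.4 and 14.3 FPKM with siGYS1, 77.3 and 82.2 with sip53, and 14.8 and 13.2 with NC (log2 fold change -2.51, SE 0.10, adjusted p = 5.89e-07). The siGYS1 and NC libraries of SLC7A5 overlapped. CHAC1, which degrades glutathione, had -1.56 (SE 0.17), the pseudokinase TRIB3 -1.19 and asparagine synthetase ASNS -0.75. The members that were higher, PHGDH (0.66, SE 0.11) and PSAT1 (0.57, SE 0.08), catalyse the opening steps of serine synthesis. PHGDH was at 17.8 and 19.3 FPKM with siGYS1, 11.7 and 10.8 with sip53, and 29.7 and 31.0 with NC.

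Among NRF2 and redox genes 10 of 23 tested were lower and 3 higher, with a median of -0.23. The lower share was 43.48% and the higher 13.04%, against 20.9% and 22.5% of all tested genes. The lower count was 6 without sip53 replicate 1, and the higher count was 5 without siGYS1 replicate 1. HMOX1, heme oxygenase 1, was at 65.9 and 74.6 FPKM with siGYS1, 324.1 and 261.8 with sip53, and 27.7 and 29.7 with NC, 4.28-fold lower with siGYS1 than with sip53 (log2 fold change -2.10, SE 0.12, adjusted p = 2.11e-06). SLC7A11, the cystine importer, had -1.19 (SE 0.16). The malic enzyme ME1 (0.52, SE 0.09) and GCLM (0.41, SE 0.09), a subunit that makes glutathione precursor, were higher, and GCLM had an adjusted p of 0.0891 without sip53 replicate 2.

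Lipid genes also went both ways, coat proteins of lipid droplets included. Of 25 tested genes of fatty acid synthesis and lipid droplets, 7 were higher (28% against 22.5% of all tested genes) and 8 lower (32% against 20.9%), with 4 and 4 without sip53 replicate 1, and the median was 0.09. PLIN2, the coat protein of lipid droplets, was at 235.1 and 260.0 FPKM with siGYS1, 797.9 and 696.7 with sip53, and 83.7 and 89.7 with NC (log2 fold change -1.62, SE 0.10, adjusted p = 2.83e-06). PLIN4, another coat protein, was higher with siGYS1 at 2.08 and 1.95 FPKM against 0.45 and 0.53 (log2 fold change 2.00, SE 0.15), as was ACACB, the mitochondrial acetyl-CoA carboxylase (1.76, SE 0.23). Of 25 sterol genes 9 were higher (36% against 22.5%) and 5 lower (20%, near the 20.9% of all tested genes), with a median of 0.13. EBP, a sterol isomerase, was at 29.2 and 31.1 FPKM with siGYS1, 16.9 and 17.0 with sip53, and 33.8 and 37.1 with NC (log2 fold change 0.86, SE 0.10).

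The 5 sterol genes called lower were weakly supported. DHCR7, the last enzyme of cholesterol synthesis, had -0.42 (SE 0.09) with an adjusted p of 0.063 without sip53 replicate 2, and NSDHL, a sterol dehydrogenase, had -0.34 (SE 0.12, adjusted p = 0.0427) with 0.201 without siGYS1 replicate 1, 0.145 without sip53 replicate 1 and 0.175 without sip53 replicate 2. The higher count of the sterol list was 4 without sip53 replicate 1 and likewise without sip53 replicate 2. The lower count was 3 on leaving out NC replicate 1, NC replicate 2, siGYS1 replicate 1 or siGYS1 replicate 2, 1 without sip53 replicate 1, and 0 without sip53 replicate 2.

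Genes of respiration and translation showed small differences that turned on single libraries. Of 40 nuclear genes of oxidative phosphorylation, 12 were lower (30% against 20.9% of all tested genes) and 1 higher with siGYS1. The median was -0.22. The lower count was 6 without siGYS1 replicate 1, 30 without siGYS1 replicate 2, and 3 without sip53 replicate 1 and likewise without sip53 replicate 2. ATP5F1B, the catalytic subunit of ATP synthase, was at 382.2 and 431.4 FPKM with siGYS1, 615.1 and 625.3 with sip53, and 562.3 and 587.1 with NC (log2 fold change -0.64, SE 0.09, adjusted p = 0.000338). SDHC, a subunit of complex II, had -0.63 (SE 0.08), with 99.6 and 104.2 FPKM against 153.9 and 158.1 with sip53 and 153.0 and 155.8 with NC. For ATP5F1B and SDHC the sip53 and NC libraries were close and the siGYS1 libraries were below both. SDHA, the flavoprotein of the same complex, was called higher at 0.26 (SE 0.09, adjusted p = 0.0425), with 0.291 without sip53 replicate 1, 0.0964 without sip53 replicate 2 and 0.135 without siGYS1 replicate 2. Its adjusted p was 0.0594 and 0.06 without NC replicate 1 and NC replicate 2.

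Ribosomal protein genes were lower in 9 of 44 cases (20.5%, near the 20.9% of all tested genes) and higher in 2, with a median of -0.17. The lower count was 4 without siGYS1 replicate 1, 26 without siGYS1 replicate 2, 1 without sip53 replicate 1 and 0 without sip53 replicate 2. RPL6 was at 1090 and 1181 FPKM with siGYS1, 625.4 and 633.7 with sip53, and 1215 and 1470 with NC (log2 fold change 0.77, SE 0.11, adjusted p = 0.000418). RPS12 (-0.47, SE 0.13) and RPL13 (0.38, SE 0.12) were called, but the adjusted p without sip53 replicate 2 was 0.11 and 0.129. Without sip53 replicate 1 that of RPS12 was 0.0688 and that of RPL13 was 0.148, and without siGYS1 replicate 2 that of RPL13 was 0.117. Ribosomal and respiratory genes are mostly short, and the length trend of siGYS1 replicate 1 (Spearman correlation 0.54) stands beside these counts. With length-corrected offsets 5 ribosomal genes were higher, against 2, and the lower counts of both lists stayed within 1.5 times. Beyond these offsets, the part of the trend in the counts was not tested. Of 13 mitochondrially encoded transcripts 3 were higher (23.1%, near the 22.5% of all tested genes) and 2 lower (15.4% against 20.9%). The median was -0.06. The complex I gene MT-ND5 (-0.23, SE 0.08) had an adjusted p of 0.281 without sip53 replicate 2, 0.0707 without sip53 replicate 1, and 0.0638 and 0.0613 on leaving out replicate 1 or 2 of siGYS1.

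Autophagy and lysosome genes were lower in 15 of 28 cases (53.6% against 20.9% of all tested genes) and higher in 2. The median was -0.26. CTSD, the protease cathepsin D, was at 303.3 and 357.4 FPKM with siGYS1, 674.3 and 657.0 with sip53, and 226.5 and 238.6 with NC (log2 fold change -1.06, SE 0.10, adjusted p = 2.71e-05). The lysosomal sialidase NEU1 had -1.06 (SE 0.10) and the autophagy receptor SQSTM1 -0.59. ATG5, which is needed to form autophagosomes, was higher at 20.4 and 23.2 FPKM with siGYS1 against 8.75 and 8.32 with sip53 and 21.5 and 21.9 with NC (log2 fold change 1.33, SE 0.10). GABARAPL1, a protein of autophagosome membranes, had 0.57 (SE 0.08). Chaperones of the endoplasmic reticulum were mostly not called: 3 of 18 were lower and none higher (5 lower without siGYS1 replicate 2), with a median of -0.06. With all libraries the lower share of 16.7% was under the 20.9% of all tested genes. The 3 lower genes were EDEM1 (-1.15, SE 0.11) and HERPUD1 (-1.05, SE 0.09), which act in degradation of misfolded proteins, and the chaperone HSPA5 (-0.45).

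Inflammatory genes went both ways, and CXC chemokines were among the genes on either side. Of 29 tested cytokine, chemokine and receptor genes (36 listed), 15 were lower with siGYS1 and 6 higher, with a median of -0.28. The lower share was 51.7% against 20.9% of all tested genes, and the higher share of 20.7% is near their 22.5%. Beside TNFSF15, CSF2 and CXCL8, interleukin-1 alpha IL1A (-2.86), the granulocyte factor CSF3 (-2.14) and the monocyte attractant CCL2 (-1.62) were lower. CXCL5, a neutrophil attractant, was at 1163 and 1076 FPKM with siGYS1, 362.9 and 385.7 with sip53, and 830.8 and 748.0 with NC (log2 fold change 1.54, SE 0.09, adjusted p = 2.15e-06). CXCL3, of the same family, had 1.499 (SE 0.10), with 81.7 and 72.1 FPKM against 26.3 and 26.8. In CXCL5 the siGYS1 libraries were above NC, and in CXCL3, at 106.4 and 104.2 with NC, they were below.

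Interferon-stimulated genes were lower with siGYS1 than with sip53 in 21 of 28 tested cases (31 listed) and higher in 2. The shares were 75% lower and 7.14% higher, against 20.9% and 22.5% of all tested genes, with a median of -0.996. MX1, an antiviral GTPase, was at 2.90 and 2.66 FPKM with siGYS1, 9.76 and 10.4 with sip53, and 1.23 and 0.95 with NC (log2 fold change -1.83, SE 0.12). ISG15, a ubiquitin-like protein, stood at 26.1 and 26.0 FPKM with siGYS1, 60.8 and 64.4 with sip53, and 22.5 and 22.0 with NC (log2 fold change -1.29, SE 0.11). In MX1 and ISG15 the order was NC, siGYS1, sip53 from low to high. RSAD2, the antiviral enzyme viperin, had -3.14 (SE 0.62) on at most 14 reads a library, and the exonuclease ISG20 had -1.93 (SE 0.27). RSAD2 held 2 and 1 reads with siGYS1 and likewise with NC. It passed the filter on low counts only through the sip53 libraries, which fixed its direction in advance. HERC5, the ligase for ISG15, was higher at 0.65 (SE 0.10), and OAS3, a sensor enzyme for double-stranded RNA, at 0.68 (SE 0.11). On FPKM, OAS3 was at 12.8 and 11.7 with siGYS1 and 10.02 and 10.03 with sip53, and its adjusted p with limma on log2(FPKM + 1) was 0.0974.

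Matrix genes and proteases went both ways. Of 17 tested proteases and inhibitors (27 listed), 7 were lower and 4 higher, with a median of -0.06. The higher share of 23.5% is near the 22.5% of all tested genes, and the lower share was 41.2% against 20.9%. MMP7, matrilysin, was at 0.82 and 1.12 FPKM with siGYS1, 6.11 and 6.12 with sip53, and 1.61 and 1.94 with NC (log2 fold change -2.67, SE 0.25). ADAM10, a sheddase of surface proteins, was higher at 238.1 and 161.4 FPKM against 70.4 and 56.0 (log2 fold change 1.52, SE 0.11). ADAM19, another sheddase, had -2.69 (SE 0.58) at no more than 0.23 FPKM in any library and an adjusted p of 0.0629 with limma on log2(FPKM + 1).

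In the list of matrix and mesenchymal genes 11 of 32 tested were higher and 13 lower (7 higher without sip53 replicate 1), with a median of -0.13. With all libraries 34.4% of the list was higher and 40.6% lower, against 22.5% and 20.9% of all tested genes. THBS1, thrombospondin 1, was at 35.4 and 30.5 FPKM with siGYS1, 6.25 and 6.45 with sip53, and 69.4 and 66.0 with NC (log2 fold change 2.32, SE 0.10, adjusted p = 8.88e-07). Its 3 groups did not overlap, with siGYS1 in the middle. ITGA5, the fibronectin receptor subunit, was at 14.0 and 14.9 FPKM with siGYS1, 59.1 and 58.2 with sip53, and 10.3 and 8.32 with NC (log2 fold change -2.06, SE 0.09). FN1, fibronectin, had -1.004 (SE 0.10), and COL6A2, a chain of collagen VI at below 1 FPKM in each library, had -3.53 (SE 0.36).

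Wnt regulators were higher in 7 of 24 tested cases (32 listed) and lower in 7, with a median of 0.07. That is 29.2% each way, against 22.5% higher and 20.9% lower over all tested genes. On leaving out sip53 replicate 1 there were 2 higher and 4 lower, and likewise without sip53 replicate 2. DKK1, a secreted Wnt inhibitor, was at 45.6 and 42.9 FPKM with siGYS1, 7.21 and 7.58 with sip53, and 102.6 and 105.9 with NC, 5.83-fold higher with siGYS1 than with sip53 (log2 fold change 2.54, SE 0.10, adjusted p = 5.89e-07). WNT5A, a noncanonical ligand, had 1.14 (SE 0.13). ZNRF3 and RNF43, ligases that remove Wnt receptors, had -0.88 (SE 0.11) and -1.19 (SE 0.32). RNF43 was at most at 0.33 FPKM, with adjusted p-values of 0.0615 without siGYS1 replicate 1, 0.0614 without sip53 replicate 1 and 0.083 without sip53 replicate 2.

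Of 16 BCL2 family genes 5 were higher and 6 lower (3 higher without sip53 replicate 1), with a median of -0.15. Of the family, with all libraries, 31.25% was higher and 37.5% lower, against 22.5% and 20.9% of all tested genes. BIK, which promotes cell death, was at 4.87 and 5.96 FPKM with siGYS1, 0.76 and 1.56 with sip53, and 2.44 and 3.36 with NC (log2 fold change 2.18, SE 0.33). The survival proteins BCL2A1 and MCL1 were lower with siGYS1. BCL2A1 was at 1.49 and 1.11 FPKM against 12.2 and 11.6 with sip53 and 0.79 and 1.70 with NC (log2 fold change -3.22, SE 0.29, adjusted p = 2.79e-05). MCL1 was at 66.2 and 59.2 FPKM against 142.2 and 139.7 with sip53 and 89.0 and 83.5 with NC (log2 fold change -1.20, SE 0.09), so that siGYS1 was the lowest group.

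Immediate early genes, which growth factors and stress switch on within a short time, were lower in 13 of 25 tested cases and higher in 4 (2 higher without sip53 replicate 2), with a median of -0.30. The lower share with all libraries was 52% and the higher 16%, against 20.9% and 22.5% of all tested genes. DUSP1, a phosphatase of MAP kinases, was at 10.6 and 13.4 FPKM with siGYS1, 35.0 and 32.4 with sip53, and 9.63 and 10.9 with NC (log2 fold change -1.53, SE 0.12). ETV5, a transcription factor of ERK signalling, had -1.32 (SE 0.09). JUND, an AP-1 subunit, was higher at 61.0 and 68.8 FPKM against 26.7 and 28.8 (log2 fold change 1.14, SE 0.13), as was IER5 (0.88, SE 0.11).

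Markers of clear cell carcinoma were present in all libraries, with PAX8, a lineage transcription factor, between 144.4 and 164.9 FPKM (log2 fold change 0.00, 95% interval -0.17 to 0.18). Of 14 tested markers 5 were higher and 4 lower with siGYS1 (2 lower without sip53 replicate 1), with a median of 0.05. As shares with all libraries, 35.7% of these markers were higher and 28.6% lower, against 22.5% and 20.9% of all tested genes. GPC3, a surface proteoglycan, was at 12.8 and 14.3 FPKM with siGYS1, 3.98 and 4.51 with sip53, and 16.7 and 19.9 with NC (log2 fold change 1.63, SE 0.13). For GPC3 siGYS1 lay between sip53 and NC. GLRX, glutaredoxin, had -0.97 (SE 0.12), and SOD2, the mitochondrial superoxide dismutase, had -0.82 (SE 0.10). NAPSA, a clear cell marker, was at 0.32 to 0.47 FPKM throughout and was not tested.

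Of 13 tested epithelial markers 2 were higher (15.4% against 22.5% of all tested genes) and 6 lower (46.2% against 20.9%). The median was -0.31. EPCAM and E-cadherin (CDH1) were the higher pair. EPCAM stood at 3.44 and 3.63 FPKM with siGYS1 and 1.64 and 1.31 with sip53 (log2 fold change 1.17, SE 0.21), and CDH1 at 1.71 and 1.5 against 0.90 and 0.73 (log2 fold change 0.83, SE 0.17). The tight junction protein CLDN4 was lower at 2.89 and 3.26 FPKM against 13.7 and 12.3 (log2 fold change -1.78, SE 0.13), as was the keratin KRT19 (-1.92, SE 0.34).

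Fibroblast and endothelial markers were at low levels, and some leukocyte markers were not. Only 3 fibroblast, 3 endothelial and 4 leukocyte markers were tested, and 33.3%, 66.7% and 25% were lower, against 20.9% of all tested genes. Fibroblast markers, 1 of 3 tested lower, summed to 1.77 and 1.68 FPKM with siGYS1 and 5.98 and 4.62 with sip53, a difference that came from DCN, without which the sums were 1.35 to 1.53 FPKM in these 4 libraries. Endothelial markers summed to 0.64 and 0.63 FPKM with siGYS1 and 1.93 and 1.32 with sip53, and PECAM1 (-2.17, SE 0.43) and CDH5 (-1.78, SE 0.37) were lower on at most 44 reads a library. Leukocyte markers summed to 28.2 and 32.2 FPKM with siGYS1 and 30.2 in both sip53 libraries. Most of that sum was LAPTM5, at 15.3 to 20.3 FPKM in all libraries, and the macrophage protein CD68 was lower at -0.54 (SE 0.15), with an adjusted p of 0.102 without sip53 replicate 1. The share of such cells in any difference was not tested.

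Because NC was sequenced beside both knockdowns, its levels show on which side a difference lay, as a description without a test. In MMP1, TNFSF15, SLC7A5, MPZL1, HMMR and GINS2 the siGYS1 libraries were near NC and sip53 was apart, while in ATP5F1B, SDHC and GYS1 the sip53 libraries were near NC. A further 4 genes of the latter kind, chosen after their values were seen, follow. CCR10, a chemokine receptor, was at 2.48 and 2.79 FPKM with siGYS1, 17.2 and 16.6 with sip53, and 19.1 and 19.2 with NC (log2 fold change -2.62, SE 0.15, adjusted p = 2.11e-06). PNPLA6, a lysophospholipase, was at 7.29 and 6.20 FPKM with siGYS1, 31.2 and 31.1 with sip53, and 35.6 and 27.7 with NC (log2 fold change -2.33, SE 0.09). LCMT1, the methyltransferase of protein phosphatase 2A, had -2.26 (SE 0.16), and BIN1, a membrane-bending protein, had -2.10 (SE 0.11). In CCR10, PNPLA6, LCMT1 and BIN1 no siGYS1 library reached the range of the other 4.

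Some genes far from NC in both knockdowns were not called in the direct contrast. EGR1, an immediate early transcription factor, was at 3.33 and 2.61 FPKM with siGYS1, 2.21 and 2.38 with sip53, and 11.2 and 11.8 with NC. Its log2 fold change between the knockdowns was 0.33 (95% interval -0.01 to 0.67, adjusted p = 0.103), so that a difference of more than 0.67 lies outside the interval. AGR2, a disulfide isomerase of secretory epithelia, was at 0.98 and 0.73 FPKM with siGYS1, 0.66 and 0.39 with sip53, and 2.99 and 1.85 with NC. At these levels its interval ran from -0.78 to 0.99 (log2 fold change 0.10, adjusted p = 0.858), and a difference approaching 2-fold was not detectable at this depth. Both genes were chosen after their values were seen.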

How the data were processed

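Per the labels' protocols, RNA was extracted, poly(A) selected and sequenced from 6 libraries of TOV21G cells, in groups given by the sample titles. Per the file headers, the authors' table holds, for each library, TPM, FPKM, read counts and read counts after normalization. The deposited read counts are expected counts, with 16.8% to 18.1% of values per library not whole (tolerance 1e-09), and were rounded for fitting. The authors' TPM sum to 1000000 per library to within rounding, and were used to pick genes. The authors' normalized read count is a normalized signal and was not used. The submitters' processing notes name, without roles, aligners (HISAT2, STAR, TopHat), counters (featureCounts, HTSeq, Salmon), trimmers (cutadapt, Trimmomatic), FastQC, edgeR and DESeq2. They also name a mouse build, although 16830 of 16910 identifiers are in human GENCODE 29. The sources used here do not say which tool made the table.

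The test was the quasi-likelihood test of edgeR 4.0.16 under R 4.3.3, after filterByExpr (minimum count 10) and TMM scaling, over all 6 libraries with group as the sole term, so that 3 residual degrees of freedom and 1 estimate of the spread were shared. The common dispersion was 0.0064. MMP1, WFDC1, DCN, GYG2, RSAD2, ADAM19 and COL6A2 are among the genes that reached the minimum count of 10 in both libraries of sip53 alone. Such genes passed the filter only through sip53, so their direction was fixed in advance. SE is the size of the log2 fold change over the root of the F statistic, and intervals are at 95%. Adjusted p is by Benjamini-Hochberg over 13235 genes, with a threshold of 0.05. The procedure was tested on simulated data. Gene length in bases is the value implied by the table's counts and FPKM. Alternatives used DESeq2 1.42.0, limma 3.58.1, other factors, filters and offsets, and left out each library in turn.

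Named genes are GYS1; the 12 largest differences each way among called protein-coding genes with a mean of at least 1 FPKM over the 4 libraries and no overlap; the 5 called each way with the largest TPM difference; and per list up to 2 called each way by size, or else the smallest p. Further list members are named as examples, chosen after their values were seen. Some genes the rule takes are not reported here. The contrast, the 28 gene lists and the rule were chosen with earlier results of these data known.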

Additional observations from a re-analysis of the deposited data

How the results depend on the processing

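Of 115 named genes, 93 kept their direction and their side of the threshold under every alternative run, and 22 did not. RPS29 reversed, to a log2 fold change of 0.025 with length-corrected offsets. Leaving out single libraries gave 1820 to 3269 genes higher with siGYS1, 1596 to 3068 lower, and 3129 to 4957 with an interval within 0.5 log2 units of 0. The lowest counts came without sip53 replicate 1 or 2. Limma on log2(FPKM + 1) gave 367 genes at least 2-fold higher and 272 at least 2-fold lower, against 692 and 588, on a scale where the pseudocount shrinks low genes. The other counts of genes stayed within 1.5 times. DESeq2 called 2355 higher and 2291 lower. Length-corrected offsets gave 3443 and 3790, and with siGYS1 replicate 1 left out as well, an alternative chosen after seeing the data, 3182 and 3559.

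With the replicate number as a block (replicate block) 3681 genes were higher and 3521 lower. The correlation of replicate differences was 0.27 between siGYS1 and sip53, 0.59 between siGYS1 and NC, and 0.12 between sip53 and NC. The labels give the numbers no shared source, and 2 numbers are too few to settle whether they pair the libraries, so no block was used in the main test. Under the block 23 respiratory and 22 ribosomal genes were lower, against 12 and 9. The medians of the Wnt, sterol, lipid and mitochondrially encoded lists changed sign under some alternatives.

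With a minimum count of 50 no endothelial marker was left to give a median. With 2 libraries a group, small differences at low levels were not detectable at this depth.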
